A study of Mus musculus with 62 samples.

Results

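The dorsal striatum (DS) libraries compared here came from 6 of the 62 samples of the series, 3 of acute saline and 3 of acute ethanol, and were taken by their sample labels. The mice were adult male C57BL/6J, 8 to 10 weeks old, without transgene or mutation. Each received 1 intraperitoneal injection of 2 g/kg ethanol or of saline and was killed 4 h later, and the DS was cored from frozen coronal slices. Poly(A) RNA was sequenced from 1 library per mouse, with total gene counts of 9689502 to 14160919 in the saline group and 13003686 to 46564992 in the ethanol group. In what follows, values per library are in the order saline replicates 2, 4 and 6 and ethanol replicates 3, 4 and 5, in CPM, the read count scaled to the library size and by TMM. Fold changes are log2 values ± SE of ethanol over saline from edgeR, and a gene is called at a false discovery rate (FDR) below 0.1.

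The DS is made up mostly of GABAergic projection neurons, which carry either the D1 dopamine receptor with dynorphin and substance P or the D2 receptor with enkephalin. It lies beneath the cortex and the corpus callosum, from whose glutamatergic neurons it receives its main input. Those inputs bring axons and not cell bodies, so transcripts of pallial (cortical) projection neurons, such as the vesicular glutamate transporter Slc17a7, are low in cleanly dissected striatum. Ethanol is known to raise circulating corticosterone in rodents, and the glucocorticoid receptor induces a set of target genes in neurons and glia.

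The labelled tissue was checked first against 13 markers of pallial excitatory neurons. Their median level, as a percent of that in the saline cortex libraries of the same series, was 22.04%, 25.9% and 27.7% in the saline DS libraries and 4.01%, 6.71% and 1.32% in the ethanol DS libraries. The groups did not overlap. Slc17a7 itself stood at 273, 302 and 360 CPM in the saline libraries and at 17.9, 77.2 and 10.9 CPM in the ethanol libraries, a fall of 3.20 ± 0.50 (FDR = 0.00295). Summed over the list, the markers reached 687 to 855 CPM in saline and 234 to 357 CPM in ethanol libraries. No marker was at 0 in all libraries of a group. Of the 13 markers, 10 fell and 1, Lamp5, rose. Markers of striatal projection neurons were abundant in all 6 libraries, at 7461 to 8577 CPM summed over 11 genes in saline and 9708 to 10006 CPM in ethanol.

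The same separation held in the acute ventral striatum (VS), with 20.4% to 26.3% in saline and 1.73% to 7.88% in ethanol libraries, and in the chronic DS (10 injections), with 21.1% and 34.4% in saline and 3.79% to 9.36% in ethanol libraries. Of the 7 mice that gave an acute striatal library, 5 gave both regions. In the chronic VS, 1 of 3 saline libraries was at 5.64%, below several acute ethanol libraries, and the other 2 were at 21.01% and 38.6%. The 3 chronic VS ethanol libraries were at 1.75% to 4.36%, so the groups did not overlap there either. In the 6 acute DS libraries, ethanol and pallial marker level move together and cannot be told apart. In bulk tissue, fewer cells of a type and less RNA per cell cannot be told apart either.

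**Figure D1:**
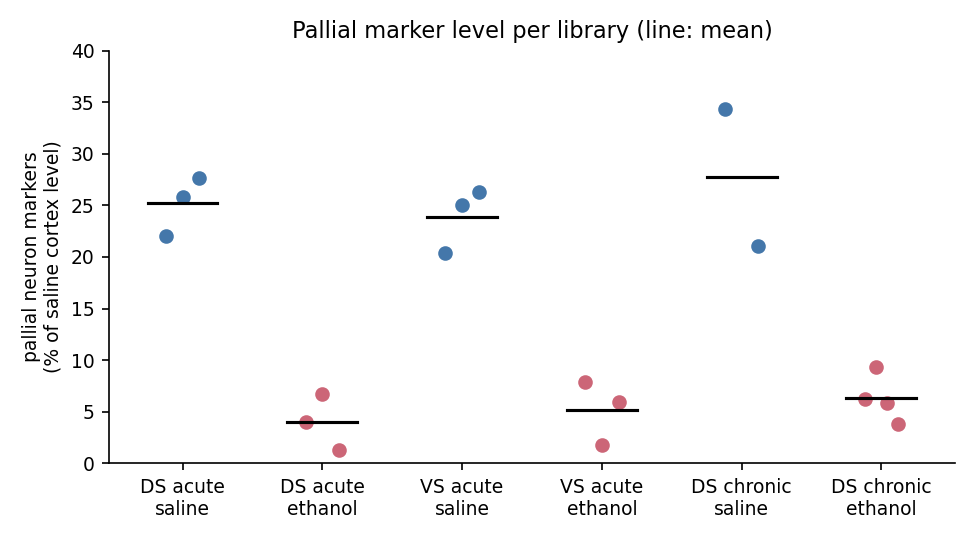
Median level of 13 pallial excitatory neuron markers in each striatal library, as a percent of their level in saline cortex (y axis), by group (x axis). Points are libraries and lines are group means. The 3 acute saline DS libraries lie between 22.04% and 27.7%, and the 3 acute ethanol DS libraries between 1.32% and 6.71%.

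Acute ethanol against saline gave 1056 called genes among 20495 tested (5.15%), of which 421 were higher (2.05%) and 635 lower (3.1%) after ethanol. Leaving out saline replicate 2 or 6 or any ethanol library lowered the count to between 581 (without ethanol replicate 5, the deepest) and 702. DESeq2 called 1312 genes (6.4%), 1004 of them shared. To separate genes by their level in cortex and DS, each was classed by its mean CPM in 6 saline cortex libraries over that in 6 chronic DS libraries. None of these enter the comparison. The chronic DS libraries came from 4 ethanol-treated and 2 saline-treated mice, so this reference is not one of untreated tissue. Genes with a ratio of at least 2 are called cortex-higher, those with a ratio of at most 0.5 striatum-higher and the rest like-level. Cortex and DS libraries differed in kit and platform, and the chronic DS libraries held pallial markers at 3.79% to 34.4% of cortex themselves, so the ratios are approximate.

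The direction of the calls followed these classes. Among 2611 cortex-higher genes, 394 fell (15.1%) and 3 rose (0.115%), with a median log2 change of -0.26. Among 2121 striatum-higher genes, 214 rose (10.1%) and 13 fell (0.613%), with a median of 0.27. Among 15763 like-level genes, 204 rose (1.29%) and 228 fell (1.45%), with a median of 0.01. Over all tested genes the median was 0.00. With the 6 acute DS libraries in place of the chronic ones, 365 cortex-higher genes fell and 3 rose, and 216 striatum-higher genes rose and 15 fell. Those classes use the tested libraries themselves, so this split is not an independent check.

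As a further setting, the cortex profile was subtracted from each DS library in proportion to its pallial percent before testing. The cortex-higher falls then numbered 26 and the striatum-higher rises 7, and 273 cortex-higher genes rose, with a median of 0.61. Of the 204 like-level rises and 228 like-level falls, 28 and 45 kept their call and direction. The subtraction assumes that any carried-over tissue has the make-up of the cortex samples, and a gene without a value left after it has no test there. It is scaled by the pallial percent, which itself separates the groups, so more is taken from saline than from ethanol libraries. A loss of cortex-higher falls and of striatum-higher rises is thus built in. Values below 0 were set to 0, which can give very large changes (9.09 for Cux2). Calls kept, lost or reversed under it describe this setting and are no test of a cause.

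The gradient continued within the like-level class. Where the cortex was lower by a log2 ratio of 0.5 to 1, 101 genes rose and 9 fell. Where the cortex was higher by the same margin, 9 rose and 137 fell. In the band within 0.5 of equal level, chosen after seeing the data, 94 of 10824 genes rose (0.868%) and 82 fell (0.758%). The lean persisted within it, with 69 rises and 22 falls where the cortex was lower and 25 rises and 60 falls where it was higher. Across 16571 genes at 1 CPM or more, the log2 change and the log2 ratio had a Pearson's r of -0.47, a description over genes of the same 6 libraries. The corresponding r was -0.22 in the acute VS and -0.15 in the chronic DS. The chronic DS libraries also set the ratio, so the last value is not independent of it.

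**Figure D2:**
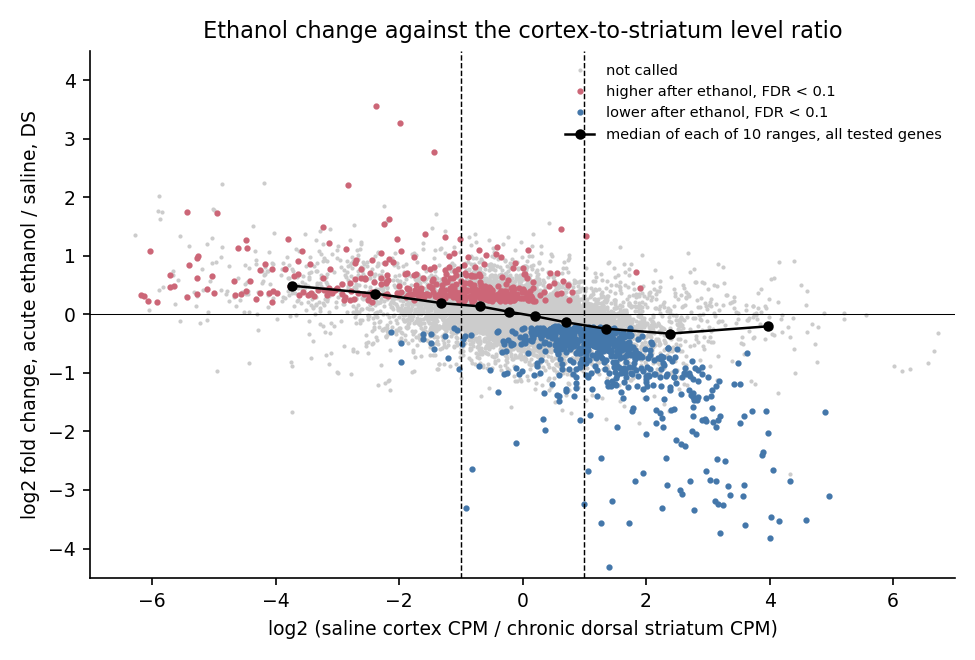
Log2 fold change of acute ethanol over saline in the DS (y axis) against the log2 ratio of saline cortex to chronic DS level (x axis), for 16563 genes of at least 1 CPM (8 lie outside the axes). Dashed lines bound the like-level class. The black line joins the medians of 10 ranges of the ratio over all tested genes. It runs from 0.49 at the striatal end to -0.33 where the cortex is 4 to 8 times higher, and turns back to -0.21 beyond that.

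Among cortex-higher genes, the smallest p-values belonged to Serpini1, Pde1a, Cadps2 and Stmn1. Serpini1 (chr3:75464854-75550802, GRCm39), which encodes the neuronal serine protease inhibitor neuroserpin, was at 128, 119 and 132 CPM in saline and 60.4, 58.3 and 49.3 CPM in ethanol libraries, and fell by 1.19 ± 0.09 (FDR = 6.99e-05). Stmn1, a tubulin-binding protein, went from 283, 276 and 270 CPM to 107, 149 and 120 CPM. Neither gene's groups overlapped, which held for 4394 of 20495 genes tested (21.4%). The changes with the cortex profile removed were -0.91 for Serpini1 and -0.88 for Stmn1, both still called. Pde1a, a calcium- and calmodulin-dependent phosphodiesterase, fell by 1.27 ± 0.10 and Cadps2, which primes dense-core vesicles for release, by 1.47 ± 0.12. For Cadps2 the sign reversed under that subtraction, at 0.35 with an FDR of 0.92.

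Rtn4rl2, a Nogo receptor homologue with a cortex-to-DS ratio of 13.7, was at 8.49, 3.69 and 7.58 CPM in saline and at 0, 0.259 and 0.174 CPM in ethanol libraries. Among transcription factors of the list, Tbr1 fell by 3.26 ± 0.44, Fezf2 by 2.46 ± 0.29, Neurod6 by 3.57 ± 0.43 and Cux2 by 0.83 ± 0.16, while Rorb changed by -0.55 ± 0.18 (FDR = 0.127). In saline, Fezf2 reached 50.1% to 115% of its saline cortex level and Neurod6 39.9% to 53.3%, above the 13-gene median, while Emx1 reached 8.97% to 13.1%. The pallial markers were thus not in the proportions of the cortex samples. Lamp5, Kcnv1 and Rorb stood at 13.5% or more of cortex level in every ethanol library too. The 3 cortex-higher genes that rose were Lamp5 (0.46 ± 0.11), the potassium channel Kcnh5 (0.72 ± 0.16) and the unnamed gene Gm57273 (1.34 ± 0.39).

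Striatum-higher genes gave the opposite picture. Gpr83, a receptor for the neuropeptide PEN (chr9:14771506-14782085, GRCm39), was at 46.3, 63.5 and 61.6 CPM in saline and 118, 102 and 135 CPM in ethanol libraries. It rose by 1.05 ± 0.12 (FDR = 0.0003), was called without each library in turn, and rose by 0.76 (FDR = 0.034) with the cortex profile removed. The chloride channel Ano2 rose by 0.84 ± 0.11, the potassium channel Kcna5 by 0.75 ± 0.10 and the synaptic vesicle protein Sv2c by 0.54 ± 0.07, and all 3 lost their calls under that subtraction (FDR 0.16, 0.22 and 0.34).

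Of 11 general markers of the projection neurons, all in the striatum-higher class, 8 rose and none fell. Their median of 0.30 was near the 0.27 of that class, in which 10.1% rose. The D1 receptor gene Drd1 was at 222, 268 and 259 CPM in saline and 327, 309.9 and 311 CPM in ethanol libraries (0.34 ± 0.07, FDR = 0.0227). Ppp1r1b, which encodes the dopamine-regulated phosphatase inhibitor DARPP-32, was at 1346, 1707 and 1526 CPM and then 1989, 1907 and 1980.3 CPM (0.36 ± 0.07, FDR = 0.0169). The groups did not overlap for either gene, as for 21.4% of all genes tested. Other general markers that rose included Rasd2, Adcy5, Gng7, Pde10a, Rarb and Rgs9, by 0.25 to 0.45.

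Direct-pathway markers gave 2 rises of 8 (Drd1 and the prodynorphin gene Pdyn, 0.69 ± 0.14) and indirect-pathway markers 4 of 8 (Drd2, 0.22 ± 0.06; the proenkephalin gene Penk, 0.33 ± 0.10; Gpr6, 0.36 ± 0.08; Ttc12, 0.87 ± 0.24). Both medians were 0.28 and none fell. Of 19 tested dopamine receptor and signalling genes, 11 rose and 1, Gpr37, fell, with a median of 0.30. Of these 19, 15 are striatum-higher and held all the calls, and none of the 4 like-level members was called. Of 8 opioid genes, Pdyn, Penk and the kappa receptor gene Oprk1 (0.85 ± 0.16) rose. Every rise in the pathway, dopamine and opioid lists was of a striatum-higher gene. In that class 10.1% rose, with a median of 0.27, against 2.05% over all genes tested. With the cortex profile removed, the medians became -0.08 for the general markers, 0.02 and -0.02 for the direct and indirect pathways and -0.04 for the dopamine genes, and that of the opioid genes went from 0.46 to 0.39. Without ethanol replicate 4 the opioid median was 0.24.

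Fkbp5 had the smallest p-value of the like-level rises. It encodes a co-chaperone that restrains the glucocorticoid receptor and is itself induced by it (chr17:28618068-28736498, minus strand, GRCm39). The gene was at 48.1, 46.7 and 47.3 CPM in saline and 71.4, 85.8 and 89.5 CPM in ethanol libraries. It rose by 0.80 ± 0.09 (FDR = 0.000253), was called without each library in turn, and rose by 0.65 (FDR = 0.015) with the cortex profile removed. Its level in cortex was 0.58 of that in chronic DS.

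Of 23 listed glucocorticoid response genes, 9 rose (Fkbp5, Cdkn1a, Plin4, Hif3a, Sgk1, Tsc22d3, Pdk4, Mt2 and Klf9) and 1 fell (Dusp1), with a median of 0.35. Over all genes tested 2.05% rose and 3.1% fell, and over like-level genes 1.29% and 1.45%. The cell cycle inhibitor Cdkn1a was at 15.4, 15.0 and 15.3 CPM in saline and 20.9, 38.9 and 37.3 CPM in ethanol libraries (1.10 ± 0.19, FDR = 0.00522). Sgk1, a kinase of ion transport, was at 83.9, 72.6 and 129.6 CPM and then 160.0, 134 and 161 CPM (0.66 ± 0.16, FDR = 0.0402). In each of these genes the lowest ethanol library lay above the highest saline library, narrowly so in Sgk1. Groups did not overlap in 21.4% of all genes tested.

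Tsc22d3 (GILZ, an anti-inflammatory mediator) rose by 0.49 ± 0.12, Plin4 (a lipid droplet coat protein) by 1.10 ± 0.26, Hif3a by 0.79 ± 0.20, Klf9 by 0.33 ± 0.08 and Pdk4 by 0.49 ± 0.14. Mt2, a metal-binding metallothionein, was at 80.7, 72.8 and 72.4 CPM in saline and 86.7, 102 and 98.2 CPM in ethanol libraries (0.35 ± 0.08, FDR = 0.0321), and its call held in 3 of 6 fits without 1 library. Its neighbour Mt1 changed by 0.22 ± 0.07 (FDR = 0.137). Per1, a clock gene that glucocorticoids also induce, had overlapping groups (FDR = 0.997), and the receptor gene Nr3c1 changed by -0.12 ± 0.08 (FDR = 0.546). The phosphatase gene Dusp1 fell by 0.55 ± 0.13 (FDR = 0.0324).

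Removing the cortex profile left the list's median at 0.33, where Fkbp5, Cdkn1a and Dusp1 kept their calls and the other 7 genes did not. The medians of the same 23 genes were 0.36 in the acute VS and 0.13 in the chronic DS. Changes of Fkbp5 were 0.58 ± 0.14 and 0.46 ± 0.14 in those comparisons, and of Sgk1 0.67 ± 0.27 and -0.24 ± 0.25.

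**Figure D3:**
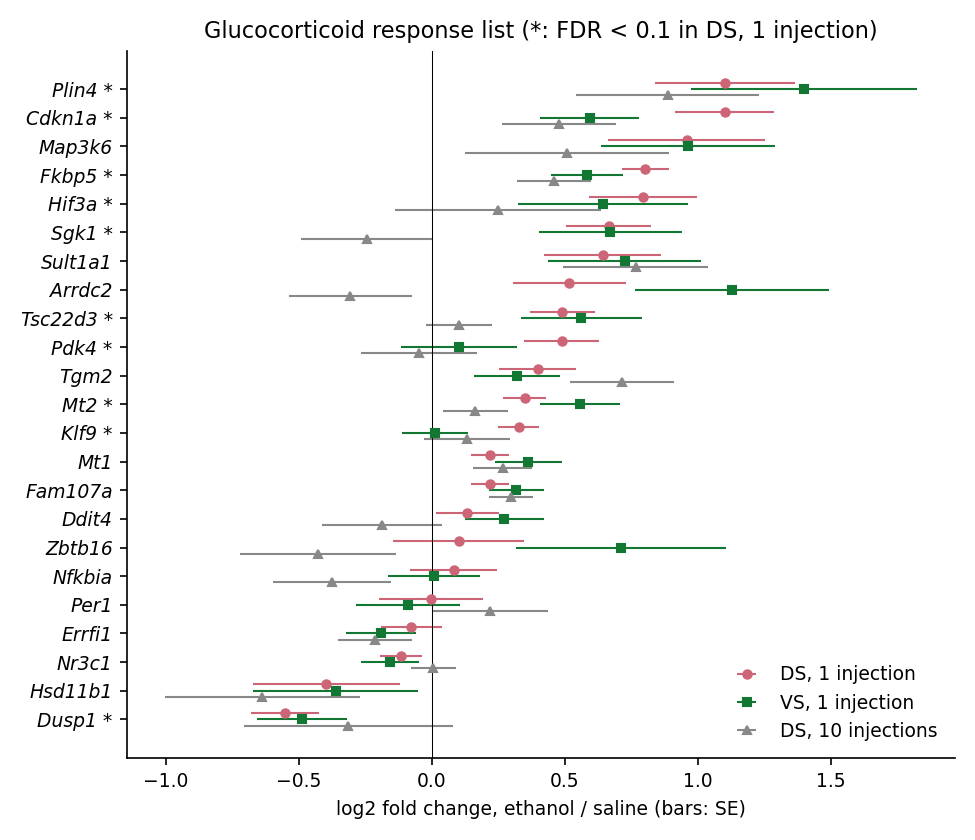
Log2 fold changes of ethanol over saline (x axis, bars are SE) of 23 glucocorticoid response genes (y axis) in the DS after 1 injection (circles), the VS after 1 injection (squares) and the DS after 10 injections (triangles). Asterisks mark the 10 genes called in the DS after 1 injection. Plin4 and Cdkn1a lie at 1.10, and Dusp1 at -0.55.

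Promoters of the list were searched in RefSeq windows from 250 bases before to 50 bases after each start (build GRCm38.p6, where coordinates differ from those of the counts). The glucocorticoid response element palindrome, AGAACA and TGTTCT with any 3 bases between, was found in 3 of 32851 windows (0.00913%), and 1 of these belongs to Sgk1. The looser form, GNACA and TGTNC with any 3 bases between, which takes in the first, was in 0.475% of windows, and among the 20 list genes with a window in those of Sgk1, Mt1, Fam107a and Map3k6. The metal response element core TGCGCNC was in 15.4% of windows, and in those of 6 of the 20 list genes: Ddit4, Dusp1, Mt1, Mt2, Per1 and Sgk1. All searches covered both strands. The windows of the called genes Sgk1, with the palindrome in capitals 189 bases before the start (chr10:21993640-21993939, plus strand), and Mt2, with 2 metal response element matches in capitals (chr8:94172368-94172667, plus strand), are shown beside that of the neighbouring Mt1, with the looser form in capitals (chr8:94178839-94179138, plus strand).
Sgk1: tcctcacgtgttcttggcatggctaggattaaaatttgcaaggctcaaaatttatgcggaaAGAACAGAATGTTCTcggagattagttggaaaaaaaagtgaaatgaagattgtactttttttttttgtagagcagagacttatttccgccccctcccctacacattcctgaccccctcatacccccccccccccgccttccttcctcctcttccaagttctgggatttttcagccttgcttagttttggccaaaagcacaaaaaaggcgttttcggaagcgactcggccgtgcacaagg
Mt1: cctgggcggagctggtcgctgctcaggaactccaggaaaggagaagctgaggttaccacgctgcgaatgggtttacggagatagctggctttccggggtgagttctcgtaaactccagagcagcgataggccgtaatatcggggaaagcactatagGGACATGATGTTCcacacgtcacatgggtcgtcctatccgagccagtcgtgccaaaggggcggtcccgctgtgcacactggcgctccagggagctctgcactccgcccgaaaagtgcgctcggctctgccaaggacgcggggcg
Mt2: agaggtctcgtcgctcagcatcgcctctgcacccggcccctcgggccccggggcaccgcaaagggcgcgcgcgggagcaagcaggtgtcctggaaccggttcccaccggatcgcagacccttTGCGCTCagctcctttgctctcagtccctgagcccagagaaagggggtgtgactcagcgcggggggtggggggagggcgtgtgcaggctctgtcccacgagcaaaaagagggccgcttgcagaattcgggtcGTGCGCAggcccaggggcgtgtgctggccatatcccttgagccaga
A match is a string of letters and was not tested for binding.

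Other like-level rises were not on that list. Etnppl, an astrocyte enzyme that breaks down phosphoethanolamine, was at 18.8, 18.4 and 19.5 CPM in saline and 33.4, 28.6 and 35.5 CPM in ethanol libraries (0.78 ± 0.11, FDR = 0.00132). Its cortex-to-DS ratio was 1.00, its rise 0.92 (FDR = 0.0076) with the cortex profile removed, and its change 1.22 ± 0.46 in the acute VS and 0.77 ± 0.36 in the chronic DS. Xdh, the xanthine dehydrogenase gene, chosen after its values were seen, went from 8.39, 8.90 and 8.87 CPM to 12.5, 18.5 and 20.3 CPM (0.99 ± 0.18, FDR = 0.00706).

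Wfs1, an endoplasmic reticulum membrane protein, was at 68.7, 63.4 and 69.5 CPM in saline and 153, 96.2 and 119.8 CPM in ethanol libraries (0.87 ± 0.13, FDR = 0.00206). Its level in chronic VS was 3.63 times that in chronic DS. The striatum-higher Calcr, the calcitonin receptor gene, had 0 counts in all saline libraries and 2.35, 0.129 and 1.40 CPM in ethanol libraries. Ethanol replicate 4 had 2 counts, within the 3 counts that a count of 0 allows, and the gene was called in 3 of 6 fits without 1 library. Its VS level was 10.0 times that in DS. A VS level at least 1.5 times that in DS was found for 10 of 204 like-level rises (4.90%), against 5.41% of all like-level genes tested, and for 17 of 214 striatum-higher rises (7.94%), against 4.95%. A VS level lower by the same factor was found for 1 like-level rise (0.49%), against 2.67%, and for 29 striatum-higher rises (13.6%), against 33.1%.

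The sodium-calcium exchanger Slc24a4 rose by 0.65 ± 0.08, the scaffold Pdzd2 by 0.68 ± 0.10, D430019H16Rik by 0.53 ± 0.08, the ubiquitin ligase adaptor Rab40b by 0.56 ± 0.08 and the Rac exchange factor Tiam1 by 0.47 ± 0.07. Of these, Tiam1 and Slc24a4 kept their calls under the subtraction, at 0.44 and 0.51, as did Rab40b (0.39) and D430019H16Rik (0.37), while Pdzd2 did not (0.47, FDR = 0.12). Rgsl1 (1.45 ± 0.38) and Gm13091 (1.16 ± 0.28) had, with Cdkn1a and Plin4, the largest rises of the class at a mean of at least 1 CPM, at mean levels below 6 CPM in ethanol.

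**Figure D4:**
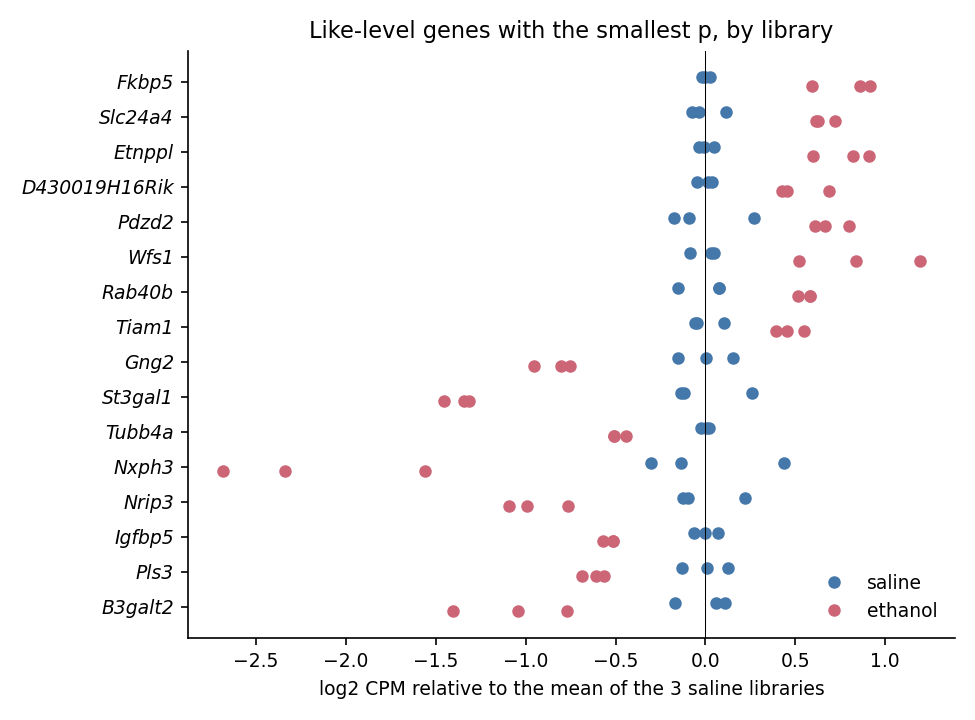
The 8 like-level rises and 8 falls with the smallest p (y axis, genes) by log2 CPM relative to the mean of the 3 saline libraries (x axis), with 1 point per library. The genes were picked for groups that do not overlap. Fkbp5 and Wfs1 spread upward and Nxph3 reaches furthest down, with a fitted change of -2.19.

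Like-level falls are named by size at a mean of at least 1 CPM. Nxph3, a neurexin ligand of layer 6b neurons, was at 25.8, 17.3 and 15.4 CPM in saline and 3.76, 6.46 and 2.97 CPM in ethanol libraries (-2.19 ± 0.27, FDR = 0.000508). Its cortex-to-DS ratio was 0.93, and its fall was 2.46 on the log2 scale with the cortex profile removed. The layer 6 genes Ntsr1 (ratio 1.26) and Ccn2 (ratio 1.28), chosen after their values were seen, fell by 1.79 ± 0.39 and 1.35 ± 0.32. The 3 other largest falls at that level were those of Prss12 (-3.23 ± 0.58), Prss35 (-3.30 ± 0.70) and Gm40518 (-2.64 ± 0.77). Ethanol replicate 4, which held the highest pallial percent of its group, was also the highest ethanol library in Nxph3, Prss12, Prss35, Gm40518 and Ccn2, but not in Ntsr1. The part of carried-over deep cortical tissue in these falls was not tested.

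The falls with the smallest p also included genes of other kinds. The G protein subunit Gng2, at the edge of the class with a ratio of 2.00, fell by 0.83 ± 0.09, the sialyltransferase St3gal1 by 1.38 ± 0.16, Nrip3 by 0.93 ± 0.12, the actin bundler Pls3 by 0.62 ± 0.08 and the galactosyltransferase B3galt2 by 1.07 ± 0.15. The tubulin gene Tubb4a was at 521, 509.6 and 527 CPM in saline and 364, 365 and 382 CPM in ethanol libraries (-0.49 ± 0.06, FDR = 0.000328), and Igfbp5, a binder of insulin-like growth factors with a ratio of 0.88, at 132, 126 and 121 CPM and then 85.0, 88.6 and 88.5 CPM (-0.53 ± 0.07, FDR = 0.000561). Tubb4a and Igfbp5 stayed called with the cortex profile removed, at -0.40 and -0.62. In the acute VS their changes were -0.21 ± 0.16 and -0.03 ± 0.15.

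Of the 13 striatum-higher falls, all kept their calls with the cortex profile removed, 3 to 7 without 1 library and 0 with all DS groups in one fit. The subtraction itself shifted this class downward, to 7 rises and 46 falls, with the median going from 0.27 to 0.01. Falls kept under it are therefore no separate support. Ugt8a, which makes the myelin lipid galactosylceramide, was at 79.0, 66.6 and 70.1 CPM in saline and 46.3, 50.4 and 55.1 CPM in ethanol libraries (-0.50 ± 0.09, FDR = 0.00716). Tmem88b fell by 0.42 ± 0.08 and Aif1l by 0.74 ± 0.17, and, chosen after their values were seen, Gpr37 by 0.34 ± 0.09 and Fa2h by 0.30 ± 0.09. Of the 12 fixed oligodendrocyte and myelin genes only Ugt8a was called, with a median of -0.14. The medians of the same list were 0.27 in the acute VS, where 11 of 12 changes were positive, and -0.32 in the chronic DS, where none was. Myelin sums overlapped between the acute DS groups, at 8173 to 9746 CPM in saline and 7557 to 8488 CPM in ethanol.

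Of 30 listed genes induced by neuronal activity, 4 fell (3.1% over all genes tested) and none rose, and the other 26 did not pass the test. The median of the list was -0.39, with 28 negative changes, and its summed level overlapped between groups, at 2030 to 2764 CPM in saline and 1261 to 2162 CPM in ethanol libraries. Ethanol replicate 5 was the lowest library, with a list median of -0.72 relative to the saline mean, against -0.15 and -0.22 in ethanol replicates 3 and 4 and -0.15 in saline replicate 4. Without ethanol replicate 5 the median log2 change was -0.20. Bdnf, the cortex-derived neurotrophin of striatal afferents, fell by 3.06 ± 0.40 and is cortex-higher (ratio 5.97), as is Ier5 (-0.39 ± 0.11). The like-level members called were Npas4, at 32.6, 38.5 and 39.4 CPM in saline and 30.7, 29.7 and 24.7 CPM in ethanol libraries (-0.39 ± 0.11, FDR = 0.0836), and Btg2 (-0.93 ± 0.22, FDR = 0.0409). The cortex-higher Fos and Arc and the like-level Egr1 changed by -0.61 ± 0.21, -0.59 ± 0.22 and -0.36 ± 0.20, and none of the 3 was called. The median was -0.49 with the cortex profile removed, -0.59 in the acute VS and -0.08 in the chronic DS.

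Of 27 synaptic vesicle genes, 9 fell, all cortex-higher (among them Stx1a, Syp, Rims1, Syn1, Dnm1, Unc13b, Sv2b and Snap25), and 2 rose, both striatum-higher (Sv2c and Unc13c). The list holds 14 cortex-higher genes, a class in which 15.1% fell, against 3.1% over all genes tested. Among striatum-higher genes 10.1% rose. None of the 11 like-level members was called. Stx1a, a SNARE protein of the presynaptic membrane, was at 73.8, 73.2 and 74.5 CPM in saline and 22.4, 37.9 and 24.5 CPM in ethanol libraries (-1.39 ± 0.15, FDR = 0.000203). Removing the cortex profile moved the list's median from -0.18 to 0.10, and all 9 falls but that of Syp changed sign.

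Receptor subunits were called in all 3 classes. For comparison, 2.05% of all genes tested rose and 3.1% fell, while 15.1% of cortex-higher genes fell and 10.1% of striatum-higher genes rose. Of the GABA-A falls below, 2 were of cortex-higher genes. Among 12 GABA-A subunits 3 fell and 1 rose: the cortex-higher Gabra3 fell by 0.59 ± 0.09, the like-level Gabra5 (ratio 1.28) fell by 0.50 ± 0.12, and Gabra4 (ratio 0.56) rose by 0.25 ± 0.07. Among 14 ionotropic glutamate subunits Gria1 and Grik2 rose, by 0.21 ± 0.06 and 0.30 ± 0.08. Of 24 cadherin, neurexin and neuroligin genes 2 rose, Nlgn1 and Cdh8, and 3 fell, Cdh2 and Nrxn2 among them. Of 14 tested receptors linked to feeding, Gpr83, Calcr and the serotonin receptor gene Htr2c (0.33 ± 0.08) rose and Ramp3 (-1.01 ± 0.26) fell.

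Calls in metabolic and stress lists were mostly falls (3.1% over all genes tested). Of 20 cholesterol synthesis genes 4 fell, among them Fdps, Sqle and Hmgcs1 by 0.34 to 0.44, and none rose, with a median of -0.25 and 17 negative changes. The same median was -0.13 in the acute VS and -0.30 in the chronic DS. Of 21 chaperones, the like-level Cryab, Fkbp4, Hspa8 and Hsp90aa1 fell by 0.23 to 0.36. Fkbp4 is the counterpart of Fkbp5 in the receptor complex and stood at 104, 90.0 and 92.0 CPM in saline and 86.6, 71.6 and 69.1 CPM in ethanol libraries. Of 17 clock genes, Tef (0.40 ± 0.07), Bhlhe41 (0.40 ± 0.10) and Dbp (0.36 ± 0.10) rose, against 2.05% over all genes tested.

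Among 11 tested genes of ethanol, acetaldehyde and acetate metabolism, Acss2, which makes acetyl-CoA from acetate, fell by 0.36 ± 0.10 (FDR = 0.0641), from 36.9, 35.6 and 33.6 CPM to 25.6, 29.9 and 27.2 CPM. Its fall with the cortex profile removed was 0.20 on the log2 scale (FDR = 0.56). Of 19 amino acid carriers, Slc1a5 rose by 1.03 ± 0.30, and Slc38a2 and Slc7a3 fell by 0.52 ± 0.08 and 1.04 ± 0.24. Of 16 tested genes of MAP kinase feedback, Dusp1 alone was called. None of 24 unfolded protein response genes (changes of -0.56 to 1.39) or 25 complex I genes (-0.18 to 0.10) was called. For comparison with these lists, 2.05% of all genes tested rose and 3.1% fell, 5.15% in either direction.

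Markers of the other cells that a core could hold moved less than the pallial ones. None of the microglial (10), endothelial (9), mural (9), fibroblast (10), oligodendrocyte precursor (6), thalamic (7), septal (4 tested) and ependymal (7) markers was called. Over all genes tested 5.15% were called, so lists this short can lack calls without showing that these cells were unchanged. Their medians ran from -0.36 (septal, all 4 negative) to 0.55 (ependymal, all 7 positive). Among astrocyte markers Gfap fell, from 118.7, 57.6 and 74.3 CPM to 34.2, 48.2 and 41.3 CPM (-1.01 ± 0.20, FDR = 0.0146), while the list's median was -0.03. Among interneuron markers Slc5a7 (0.43 ± 0.11) and Th (0.87 ± 0.25), both striatum-higher, rose. Pvalb (-1.01 ± 0.26) and Sst (-0.28 ± 0.07) fell, 1 of them cortex-higher and 1 like-level. All 3 pallidal markers, at 7.38 to 16.8 CPM in sum, were called: the striatum-higher Zim1 and Nkx2-1 rose, the cortex-higher Npas1 fell. Of 5 claustral genes Nr4a2 (-2.67 ± 0.44) and Ntng2 (-1.04 ± 0.28), both cortex-higher, fell.

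Choroid plexus markers had the highest median of any list, 1.69, with Clic6 (1.08 ± 0.21) and Kl (1.75 ± 0.45) called. Their sum was 25.2 to 301 CPM in the saline and 73.1 to 821 CPM in the ethanol libraries, so the groups overlapped. In chronic DS libraries the sum ran from 21.7 to 7231 CPM in plain CPM, and the list's median there was -1.55. Kl was at 29.6, 18.4 and 5.6 CPM in ethanol libraries against 3.99 to 6.37 CPM in saline, and kept its call in 1 of 6 fits without 1 library.

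**Figure D5:**
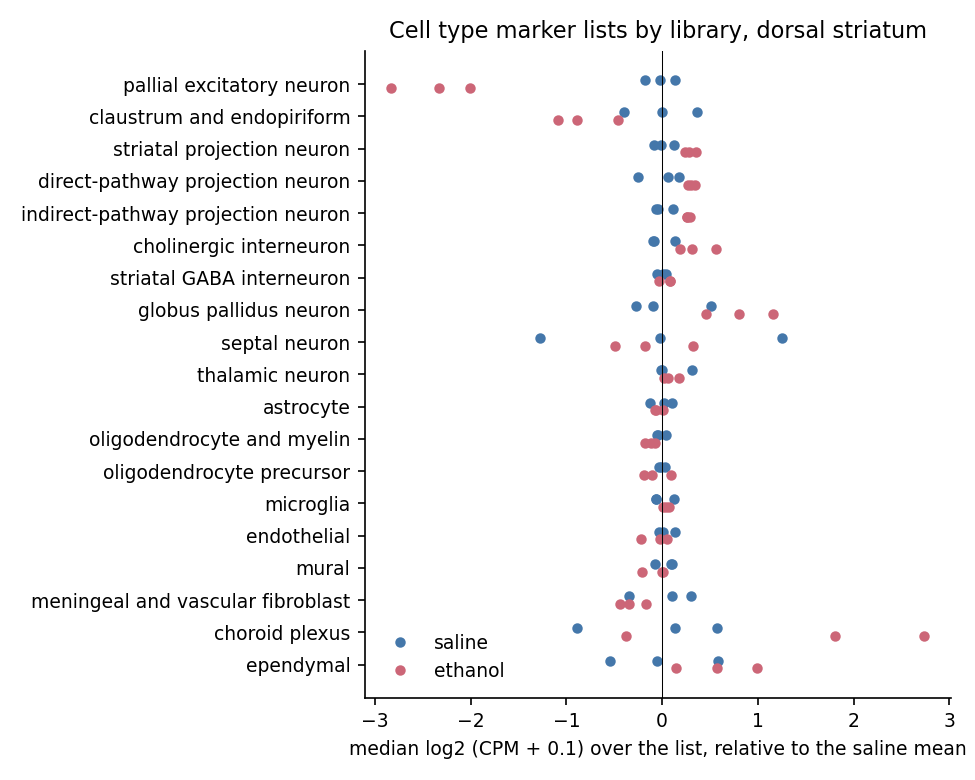
Cell type marker lists (y axis) by their median log2 (CPM + 0.1) in each acute DS library relative to the saline mean (x axis), with 1 point per library. Pallial markers in ethanol libraries lie far to the left of saline. Striatal projection neuron markers lie slightly to the right, and choroid plexus markers spread widely in both groups.

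At the isoform level 3908 of 108989 isoforms were called (3.59%), 1390 higher (1.28%) and 2518 lower (2.31%). The class split was similar to that of the genes. Among 11748 isoforms of cortex-higher genes, 1588 fell (13.5%) and 6 rose (0.051%). Among 10033 of striatum-higher genes, 716 rose (7.14%) and 45 fell (0.449%). Among 87208 of like-level genes, 668 rose (0.766%) and 885 fell (1.01%). The called isoforms belonged to 1299 genes, of which 1007 were called as genes and 292 were not. All 11 tested isoforms of Fkbp5 rose, by 0.66 to 0.95. Read pairs were counted for each isoform they overlap, so isoforms of a gene are not independent.

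Among the isoforms of genes not called, the smallest p-values for rises were those of Tma16-203, a retained intron transcript (1.62 ± 0.32, against 0.58 for the gene), and of Ftx-276 and Ftx-213 (0.96 ± 0.19 and 0.93 ± 0.19), from a long noncoding gene with 95 tested isoforms. Among the falls, Kcnc1-203 and Dpp10-205, both of cortex-higher genes, fell by 0.44 ± 0.09 and 3.22 ± 0.69.

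Whether the ethanol effect differed between regions or paradigms was tested directly. For DS against VS after 1 injection, 0 of 21142 genes were called by edgeR (0%), with 1088 at an unadjusted p under 0.05 and 11 called by DESeq2. The smallest p among lower genes was that of Pde1a (a DS-minus-VS difference of -0.95 ± 0.16, FDR = 0.50), followed by Dnajb2 (-0.58 ± 0.11) and Gpr17 (-0.56 ± 0.11), and among higher genes those of Slc24a2 (0.80 ± 0.16), Slitrk4 (0.66 ± 0.14) and Tenm3 (0.78 ± 0.17). Leaving out VS ethanol replicate 2 raised the count from 0 to 116.

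For 10 injections against 1 in the DS, without a chronic saline library in which 6 chromosomes hold no counts, 0 of 21049 genes were called by edgeR (0%), with 876 at an unadjusted p under 0.05 and 4 called by DESeq2. Dipk1b, Tnnc1 and Grm4 had the smallest p among genes with a higher change after 10 injections, and 4933407K13Rik, Spink8 and Lrch4 among those with a lower one. On their own, the acute VS gave 8 calls of 20032 genes (0.0399%, edgeR), all lower. The chronic DS, with 2 saline and 4 ethanol libraries, gave 0 of 19844 (0%, edgeR), with 1495 at an unadjusted p under 0.05. The study, which used DESeq2, reported more genes in both comparisons.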

How the data were processed

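Gene and isoform counts are the authors' deposited raw counts. Per the labels and the submitters' processing notes, the authors used cutadapt 5.0 for trimming, STAR 2.7.10a for alignment (GRCm39) and featureCounts 2.0.6 for counting by strand. The cortex libraries came from a non-directional kit counted as reverse-stranded, so their level for genes that overlap on opposite strands is uncertain. Features reaching 5 counts in 2 or more libraries of either group were tested on the whole table with edgeR 4.0.16 (quasi-likelihood, TMM, Benjamini-Hochberg FDR below 0.1) in R 4.3.3. DESeq2 1.42.0 and limma 3.58.1 were alternatives. Each saline and ethanol library is 1 mouse, so p-values measure the spread between mice. The subtraction used each library's pallial percent and the mean saline cortex profile. One chronic saline DS library with 6 empty chromosomes was left out.

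Named genes were the 8 rises and 8 falls with the smallest p and the 4 largest of each in the like-level class (groups apart, mean of at least 1 CPM), the 4 of each with the smallest p in the other classes, called list members, genes the study labels (Gpr83, Serpini1, Rtn4rl2, Fkbp5 and Mt2), and the 3 of each with the smallest p in the interaction and isoform tests. Classes, lists and members were chosen with earlier results of these data known. Xdh, Ntsr1, Ccn2, Gpr37 and Fa2h were added after their values were seen. The limit for a count of 0 (3 counts) covers counting error only. Some genes that the rule names are not reported here. Scripts were tested on simulated data.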

Additional observations from a re-analysis of the deposited data

Results flagged for a closer look

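In 7 genes the change in every acute DS library went one way and that in every library of another comparison went the other way. None of these differences passed the test of the difference itself (edgeR). Against the acute VS, the changes were -0.37 in DS and 0.21 in VS for the co-chaperone Dnajb2 (FDR of the difference 0.65), -0.30 and 0.32 for the fatty acid hydroxylase of myelin Fa2h (FDR 0.94), and -1.01 and 0.35 for the receptor partner Ramp3 (FDR 0.95). Against the chronic DS, 4933407K13Rik changed by 1.01 after 1 injection and by -0.38 after 10, Lrch4 by 0.46 and -0.39, Spink8 by 2.40 and -2.15, and Tnnc1 by -2.25 and 1.93 (FDR of the difference 0.97 for all 4). Spink8 and Tnnc1 were below 4 CPM in every acute DS library.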

How the results depend on the processing

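The 1056 calls numbered 1798 without the low-count filter, 495 with the cortex profile subtracted and 283 with all DS groups in one fit, and 581 to 1088 when each library was left out in turn. Rises (421) numbered 855 without the filter, 85 with all DS groups and 181 to 461 without 1 library. Falls (635) numbered 137 with the subtraction, 198 with all DS groups and 400 to 627. Cortex-higher falls (394) numbered 26 with the subtraction, 161 with all DS groups and 271 to 369. Like-level rises (204) numbered 478, 78 and 38 in the first 3 settings, 115 with a ratio of 1.5, 94 in the narrow band and 53 to 227. Like-level falls (228) numbered 413, 65, 37, 105, 82 and 106 to 242 in the same order. Striatum-higher rises (214) numbered 365, 7, 46 and 117 to 230. The 3908 isoforms numbered 6223 without the filter and 2076 to 4203. DESeq2, its size factors, TMM from like-level genes and a minimum of 10 counts in every sample kept each of these counts within 1.5 times, where TMM from like-level genes was not run on isoforms.

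The count of 0 for DS against VS became 11 with DESeq2, 194 without the filter and 0 to 116 without 1 library (116 without VS ethanol replicate 2 and 3 without VS saline replicate 2). The count of 0 for 10 injections against 1 became 4, 235 and 0 to 2 (2 without chronic saline replicate 3). No paired analysis was possible because the saline and ethanol DS libraries came from different mice. With the mouse as replicate block over both regions (limma voom), the DS against VS count was 0, with 1242 genes at an unadjusted p under 0.05 and a correlation of 0.0825 within mice.

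With the cortex profile subtracted the log2 change reversed in 24 named genes: Cadps2 0.35, Cux2 9.09, Dnm1 0.47, Drd1 -0.037, Drd2 -0.16, Gabra3 0.011, Gnal -0.10, Gpr6 -0.0081, Grm4 -0.090, Htr2c -0.011, Nrxn2 0.14, Pde10a -0.11, Pde1b -0.020, Penk -0.039, Ppp1r1b -0.0042, Pvalb 9.0, Rgs9 -0.077, Rims1 0.28, Snap25 0.36, Stx1a 3.46, Sv2b 0.049, Syn1 0.10, Tenm3 -0.041 and Unc13b 0.84. The cause was not tested. With 3 mice a group, small changes cannot be resolved.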
